A study of Mus musculus with 2 samples.

Results

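Intergenic peaks called in both genotypes were examined in a profile of acetylated histone H3 lysine 27 (H3K27ac) in colonic macrophages. A called peak does not by itself show the mark. The mitochondrial chromosome, which carries no histones, had 4 WT summits. They scored 2.72 to 8.94 with a median of 5.97, and the intergenic peaks examined had a median WT score of 6.50. The peaks examined were WT summits on chromosomes 1 to 19 and X, outside all protein-coding genes. They lay over 1 kb from every gene end and within 500 bp of a Tle4cKO summit. A summit is the 1-bp position of highest signal in a called peak. The members were thus chosen by their calls in both lists and by position. The rule took 373 of 10460 WT summits, or 15% of the 2483 intergenic ones, and over all WT summits 17.9% had such a partner. Being called in both lists is the rule itself, so these shares describe the choice and support nothing.

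H3K27ac was profiled by CUT&Tag: transposase tethered through an antibody cuts nearby DNA and adds adapters, and the cut pieces are read out by sequencing. The macrophages, gated as Siglec-F-negative, Ly6C-low and CD64-positive, came from the colons of male C57BL/6 mice aged 11.1 weeks. The WT mice carried Lyz2-Cre alone, and the Tle4cKO mice were Tle4f/f Lyz2-Cre, in which the Cre recombinase of the lysozyme locus deletes the floxed Tle4 gene in myeloid cells. Both groups therefore carried the Cre allele. Cells of 4 mice were pooled per genotype, which left 1 library per genotype, no replicate and no test between genotypes. The score of a summit was read as the −log10 of the p- or q-value the authors' peak caller gave its peak. It grows with read depth, which was unknown, so scores rank summits within a list, and those of the lists are set side by side without reading a change.

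H3K27ac away from genes is known as a mark of active enhancers, which bind lineage factors such as PU.1, C/EBP and AP-1 proteins in macrophages. Tle4 is a Groucho corepressor that is brought to DNA by other factors and recruits histone deacetylases. Peaks far from genes can also arise at repeated DNA, where fragments of many copies are placed on the few copies in the assembly. Such places are known to reach very high scores in unrelated libraries and are often removed with a list of high-signal regions. No such list, repeat annotation or genome sequence was used here, so whether the very high summits lie in repeats was not tested. Sequence was examined only in 37 promoter windows within 1 kb of a member, and the highest-scoring summit inside a window scored 11.1.

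Sequence was available as RefSeq promoter windows (GRCm38.p6, the assembly of mm10), each reaching from 250 bases before a transcription start to 50 after it. Windows existed on 19 of the 20 chromosomes, and 362 of the 373 members lay on those chromosomes. Of the 362 members, 35 lay within 1 kb of a window. Inside a window lay 7 (1.93%, exact 95% interval 0.781 to 3.94%), in each case that of a long non-coding RNA gene. The WT-only intergenic summits lay inside a window in 23 of 2037 cases (1.13%, 0.717 to 1.69%). The 2 windows with the highest-scoring summits among the 7 are printed, with CpG dinucleotides in capitals. Members with higher scores lay within 1 kb of other non-coding windows but not inside them. The window of D130051D11Rik is chr15:85634346-85634645 and that of 1300002E11Rik is chr16:21794097-21794396, both on the plus strand.
D130051D11Rik: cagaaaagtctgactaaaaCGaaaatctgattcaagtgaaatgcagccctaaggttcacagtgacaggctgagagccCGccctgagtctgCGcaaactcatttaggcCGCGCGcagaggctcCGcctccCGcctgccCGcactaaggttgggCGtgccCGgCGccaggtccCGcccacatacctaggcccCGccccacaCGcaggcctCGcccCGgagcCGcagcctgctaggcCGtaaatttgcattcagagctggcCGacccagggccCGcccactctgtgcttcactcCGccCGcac
1300002E11Rik: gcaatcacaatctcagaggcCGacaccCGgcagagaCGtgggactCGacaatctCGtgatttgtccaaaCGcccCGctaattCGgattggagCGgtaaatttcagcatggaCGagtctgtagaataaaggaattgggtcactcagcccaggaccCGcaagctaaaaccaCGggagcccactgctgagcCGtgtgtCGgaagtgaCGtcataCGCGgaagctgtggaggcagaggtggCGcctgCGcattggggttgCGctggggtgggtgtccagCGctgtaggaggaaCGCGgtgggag

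Each of these windows held 23 CpG dinucleotides, and the observed to expected CpG ratio was 0.783 and 0.918, against a median of 0.384 over all 32851 windows. The WT summit at D130051D11Rik lay 33 bp after the start at position 85634629, with a score of 11.1. Its Tle4cKO partner scored 8.09 and lay 352 bp away at position 85634981, outside the printed window. The WT summit at 1300002E11Rik lay 66 bp before the start at position 21794281, with a score of 7.11. Its Tle4cKO partner scored 4.31 and lay 102 bp away, inside the window. Both WT summits were thus at starts of non-coding transcripts with CpG content above the median window. The median ratio of the 7 windows was 0.636, and their median GC content was 58.7%, against 52.7% over all windows. The 11588 windows of long non-coding RNA genes had medians of 0.245 and 48.3%. The windows that held a WT-only intergenic summit had 0.400 and 52.7%. With 7 windows these differences were not tested.

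Motifs were searched on both strands as PU.1 (GAGGAAGT), AP-1 (TGANTCA), C/EBP (TTGCNNCA), RUNX (TGTGGT), IRF (GAAA, any 2 bases, GAAA) and CTCF (CCA, any 2 bases, AG, any 2 bases, GGC). The AP-1 letters were in 3 of the 7 windows. They were in 7.81% of all windows and in 9.31% of the windows of long non-coding RNA genes. The other 5 motifs were in 0 of the 7, and the shares of all windows were 3.20%, 11.4%, 16.8%, 3.44% and 2.43% in the order PU.1, C/EBP, RUNX, IRF and CTCF. A match is a description of the letters, and with 7 windows the counts carry little weight. Windows were placed on the transcription start and not on the summit, so a match need not lie at the summit. The windows of Gm9875 (chr2:13558653-13558952, plus strand) and Gm40645 (chr10:51526214-51526513, minus strand) are shown with the AP-1 letters in capitals; the third such window is that of D130051D11Rik.
Gm9875: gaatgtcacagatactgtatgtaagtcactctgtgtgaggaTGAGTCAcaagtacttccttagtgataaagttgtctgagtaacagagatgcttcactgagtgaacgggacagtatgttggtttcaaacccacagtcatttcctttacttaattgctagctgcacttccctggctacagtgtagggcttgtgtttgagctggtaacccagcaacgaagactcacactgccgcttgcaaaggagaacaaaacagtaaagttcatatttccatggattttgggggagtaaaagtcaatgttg
Gm40645: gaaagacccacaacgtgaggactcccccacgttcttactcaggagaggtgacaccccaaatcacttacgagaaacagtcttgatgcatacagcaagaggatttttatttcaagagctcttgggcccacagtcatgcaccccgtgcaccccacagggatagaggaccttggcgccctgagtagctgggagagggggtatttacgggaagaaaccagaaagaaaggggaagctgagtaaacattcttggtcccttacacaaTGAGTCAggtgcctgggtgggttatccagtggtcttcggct

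The WT summit at Gm9875 scored 5.81 and lay 139 bp before the start. Its Tle4cKO partner scored 3.23 and lay 281 bp away, outside the printed window. At Gm40645 the Tle4cKO partner (3.18) lay 133 bp from the WT summit, inside the window. The WT summit there scored 4.37 and lay 229 bp before the start. Its closest protein-coding gene, at 29879 bp, was Lilrb4a, an inhibitory receptor of myeloid cells. In the Gm40645 window the AP-1 letters lay after the start, on the other side from the WT summit. In the D130051D11Rik window they lay before the start, and the WT summit lay after it.

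A different kind of sequence lay beside a very high summit. Position 118547934 of chromosome 4 had scores of 51.0 in WT and 33.8 in Tle4cKO, and lay 479 bp from a window of the non-coding gene Gm40237 (chr4:118547156-118547455, plus strand). The window is printed because it was the only one within 1 kb of a member that repeated itself, with the 12 bases TGGCAGTGGGCG in capitals.
Gm40237: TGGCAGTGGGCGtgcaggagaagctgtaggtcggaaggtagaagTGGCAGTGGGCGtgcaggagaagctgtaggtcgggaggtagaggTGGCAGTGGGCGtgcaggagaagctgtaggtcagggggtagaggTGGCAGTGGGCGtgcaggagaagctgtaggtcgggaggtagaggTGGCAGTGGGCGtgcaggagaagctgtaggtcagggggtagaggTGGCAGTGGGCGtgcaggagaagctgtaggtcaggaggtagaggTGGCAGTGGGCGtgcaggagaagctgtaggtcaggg

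These 12 bases occurred 7 times, each 44 bp after the last, and 96.1% of bases equalled the base 44 bp further on. Self-identity of at least 80% at a period of 10 to 150 bp was found in 1 of 37 windows within 1 kb of a member and in 1 of 166 within 1 kb of a WT-only intergenic summit. Over all windows it was found in 18, or 0.0548%. Windows with a near-identical window at another gene (at least 90% identity over 200 bp) numbered 3 of the 37 and 12 of the 166. Among the 3, the Gm10777 windows starting at 81996673 and 81996676 overlapped and belonged to the same summit. The share over all windows was not computed for this measure. The summit itself lay outside the printed window, and the repeat content at the summit was not tested.

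The members covered a wide range of scores. The WT scores ran from 1.92 to 294 with a median of 6.503, and the Tle4cKO scores of their partners from 1.37 to 304 with a median of 4.50. For other summits called in both lists the median WT score was 6.97 at gene ends and 5.93 in gene bodies. A WT score of at least 20, called very high here, was reached by 46 members (12.3%, interval 9.17 to 16.1%), by 22 of 982 shared gene-end summits (2.24%, 1.41 to 3.37%) and by 25 of 520 shared gene-body summits (4.81%, 3.14 to 7.02%). Over all WT summits 0.908% reached it, and over those called in both 4.96%. No WT-only intergenic summit did, and the highest of those 2110 scored 13.0. Of the 95 WT summits that reached it in any place, 93 were called in both lists. The contrast with WT-only summits is therefore tied to the rule and supports nothing.

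The intergenic summits called in both made up most of the 50 highest summits of each list. Of the 10 highest WT summits 9 were members, of the 50 highest 38 were, and of the 100 highest 48 were. The other WT summits among the 100 highest were 24 at gene ends and 28 in gene bodies. Over the whole WT list 373 of 10460 summits were members. Neighbouring members, described below, are counted separately here. In the Tle4cKO list, partners of members made up 8 of the 10 highest, 38 of the 50 highest and 58 of the 100 highest summits. All 50 of the highest WT summits had a Tle4cKO summit within 500 bp, wherever they lay.

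**Figure D1:**
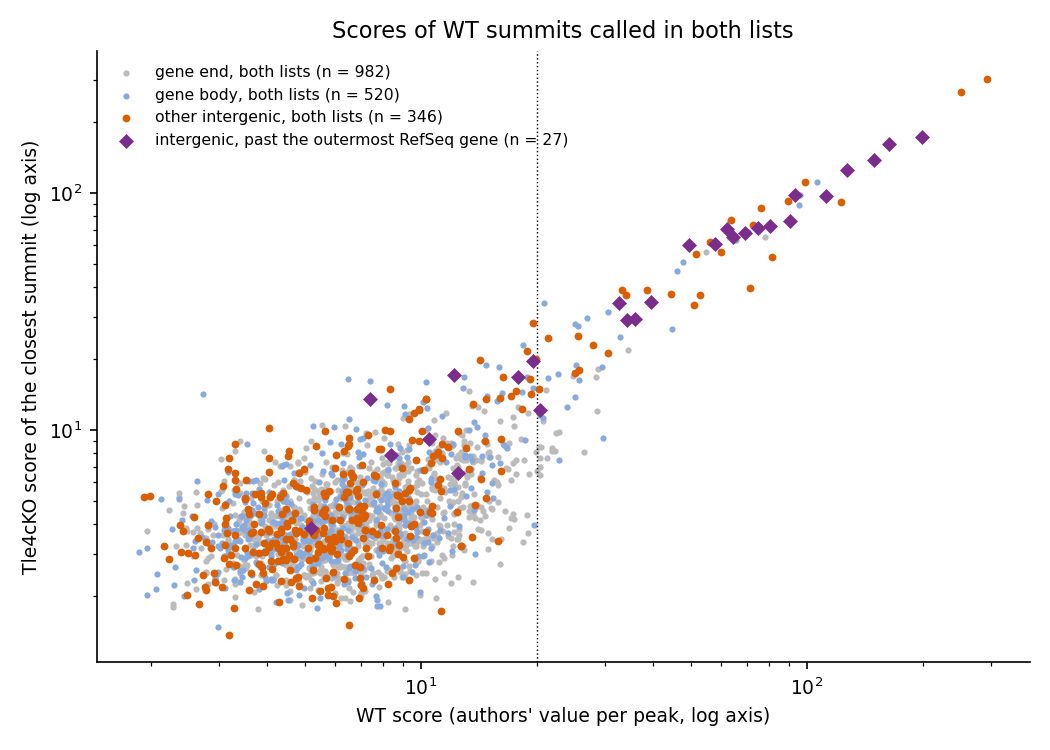
WT score (horizontal, log axis) against the score of the closest Tle4cKO summit (vertical, log axis) for each WT summit called in both lists, coloured by place; the dotted line marks a WT score of 20. Intergenic summits fill the upper right corner, up to 294 in WT and 304 in Tle4cKO, and most of those past the outermost RefSeq gene lie there.

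Within the very high class the scores of the lists were compared by place. The 46 very high members had a median score of 58.9 in WT and 58.2 in Tle4cKO, and in 19 of them the Tle4cKO score was at least the WT score. The 25 shared gene-body summits of this class had medians of 26.9 and 26.6. The 22 at gene ends had medians of 22.1 and 9.10, and 1 of them had a Tle4cKO score at least as high. The class was cut on the WT score alone, and 19 of the 22 gene-end summits scored under 30, against 7 of the 46 members. From 30 up the medians were 64.5 in WT and 65.4 in Tle4cKO for 39 members, 54.8 and 56.4 for 3 gene-end summits, and 56.8 and 57.3 for 10 gene-body summits. From 20 to 30 they were 25.1 and 17.9 for members, 21.8 and 8.51 at gene ends, and 25.1 and 16.6 in gene bodies. For members scoring 10 to 20 the medians were 12.7 and 8.36, for gene ends of that score 12.4 and 5.46, and for members scoring 5 to 10 they were 6.798 and 4.15. The scores are not on a common scale, there was 1 library per genotype, and these differences between places were not tested.

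The single highest summit of both lists, with scores of 294 and 304, lay at position 35305399 of chromosome 9, within 1 kb of the non-coding gene Gm33838 and 29442 bp from Rpusd4, a pseudouridine synthase gene. The second in both lists lay at position 98666817 of chromosome 2, with 252 and 266. It was 1035145 bp from the closest protein-coding gene, Lrrc4c, a synaptic adhesion gene. The next 2 members scored 199 and 173 at position 145341192 of chromosome 7 and 163 and 161 at position 90602377 of chromosome 18. Positions 124801991 of chromosome 14 (150 and 137) and 120028845 of chromosome 12 (127 and 125) followed. The first 6 members kept the same place in both lists, ranks 1 to 6.

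Many of the very high summits lay at the outer ends of chromosomes. On 10 of 20 chromosomes the last WT summit scored at least 20, 9 of these 10 were members, and on all 10 the last Tle4cKO summit also scored at least 20. The median score of the last summit was 23.5 in WT and 21.3 in Tle4cKO, against a median of 5.81 for the second to last WT summit and 4.47 for the whole WT list. All 10 lay past the last RefSeq gene of any type. Mouse chromosomes carry telomeric repeats at these ends, as background, and no sequence at these summits was used.

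The 9 members ranged from 34.1 in WT and 29.0 in Tle4cKO at position 120321496 of chromosome 13 to the summit of chromosome 7. On chromosome 19 the last summit lay at position 61331417 in both lists, with scores of 93.3 and 98.0, 26122 bp past the last gene. On chromosome 16 it lay at position 98107614 (90.7 and 76.0), on chromosome 1 at 195371841 (74.7 and 71.3) and on chromosome 2 at 182013066 (64.5 and 65.4). The distance past the last gene ran from 3235 bp on chromosome 13 to 124305 bp on chromosome 14. The closest protein-coding gene of the chromosome 19 summit, 102956 bp away, was Csf2ra, a receptor chain for GM-CSF, a growth factor of macrophages.

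**Figure D2:**
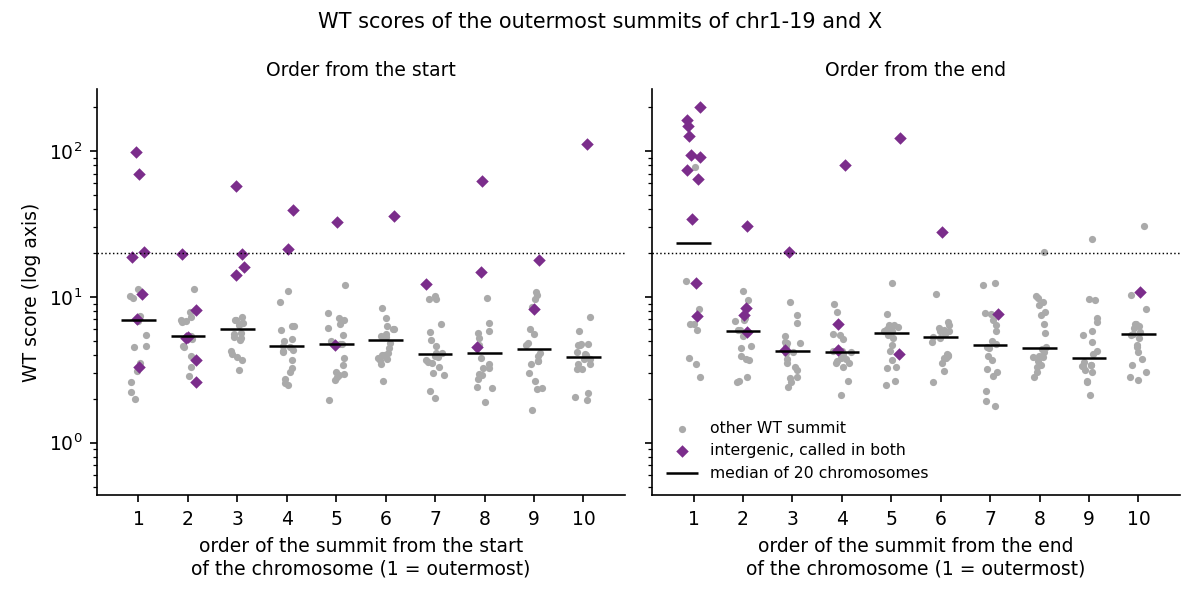
WT score (vertical, log axis) of the 10 outermost WT summits at the start (left) and end (right) of each of 20 chromosomes, by order from that end; diamonds are intergenic summits called in both lists, bars are medians and the dotted line marks a score of 20. The last summit has a median of 23.5 and the next one 5.81.

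At the starts of chromosomes, where the centromere of mouse chromosomes lies, the first WT summit was a member on 7 of 20 chromosomes and scored at least 20 on 3. These were chromosome 12 (position 3110006, 99.1 in WT and 110.8 in Tle4cKO), chromosome 9 (position 3000322, 69.2 and 67.7) and chromosome 13 (position 3373110, 20.2 and 14.8). Counting both ends, 27 members on 12 chromosomes lay past the outermost RefSeq gene (7.24%, interval 4.82 to 10.4%), and 3 of 2110 WT-only intergenic summits did (0.142%, 0.0293 to 0.415%). Over all WT summits 0.296% did. High WT scores are tied to the partner rule, and of the 327 members scoring under 20 only 8 (2.45%, 1.06 to 4.76%) did. Of these 27 members 19 were very high, 11 of them off chromosome 9, and their median scores were 49.5 in WT and 60.2 in Tle4cKO. Without the run of 11 members at the start of chromosome 9, 16 of 362 (4.42%, 2.55 to 7.08%) lay past the outermost gene, with medians of 69.6 and 68.3.

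Neighbouring members were joined when at most 12.5 kb apart, which gave 336 separate sites, 315 of them with 1 member and 17 with 2. Only 4 sites held 3 or more members, 24 in all, and 12 of the 46 very high members were in them. The run with most members, 11, covered 37698 bp at the start of chromosome 9 (3000322 to 3038020). Its WT scores ran from 12.2 to 112 with a median of 39.5, and its Tle4cKO scores from 16.7 to 97.1 with a median of 34.7. The WT list had 12 summits over this span, 11 of them members, and the Tle4cKO list had 12.

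The other runs were smaller. The summit on chromosome 2 described above belonged to a run of 3 members over 4125 bp (98662692 to 98666817), with scores of 34.1, 56.2 and 252 in WT and 37.3, 61.8 and 266 in Tle4cKO. A run of 4 on chromosome 10 (3110168 to 3113707) scored 5.34 to 21.4 in WT and 6.04 to 24.5 in Tle4cKO, and lay near the start of that chromosome. The run of 6 on chromosome 6 (47745227 to 47778283) held no very high member, with WT scores of 5.64 to 19.9 and Tle4cKO scores of 3.74 to 19.97. Of 10 WT summits over its span 6 were members. With each site counted once, 36 very high sites remained, and without the chromosome 9 run there were 362 members, 38 of them very high.

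The positions in the lists were closest together at very high scores. The median distance to the Tle4cKO summit was 11.5 bp, the largest was 108 bp, and 34 of 46 (73.9%, interval 58.9 to 85.7%) lay within 25 bp. Members scoring under 20 had a median of 101 bp, and 74 of 327 (22.6%, 18.2 to 27.6%) lay within 25 bp. The distance shrank with score in every place: at scores of 20 and over its median was 25 bp at gene ends and 13 bp in gene bodies. At scores of 10 to 20 it was 30 bp for members, 54.5 bp at gene ends and 56.5 bp in gene bodies. The rule caps this distance at 500 bp, and no test between the places was made.

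**Figure D3:**
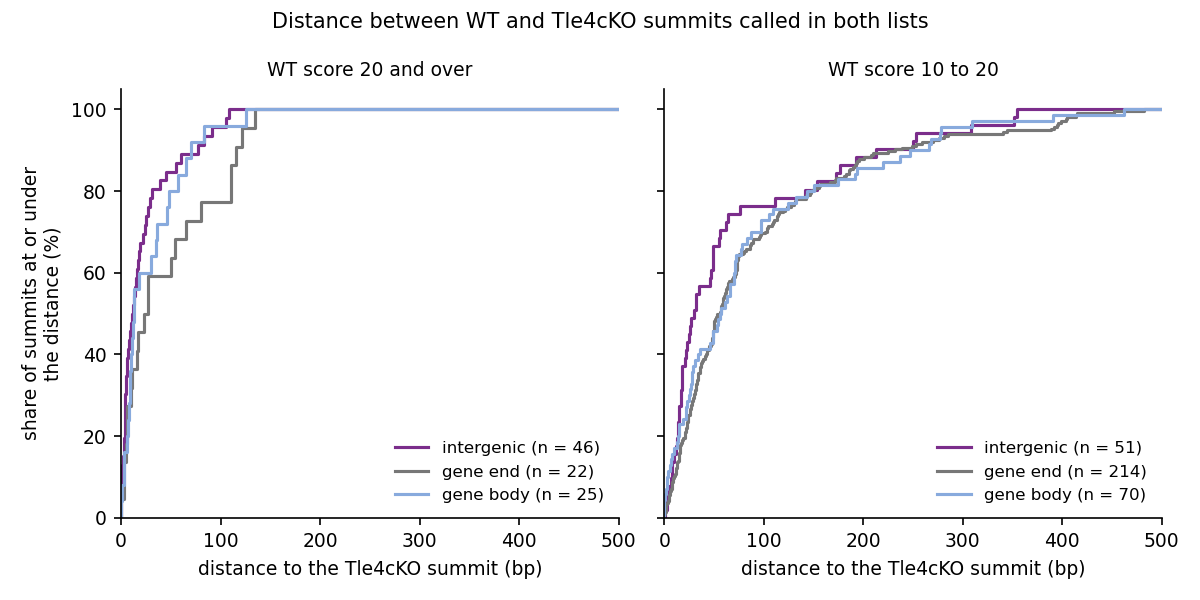
Share of WT summits called in both lists (vertical, %) whose Tle4cKO summit lies at or within a distance (horizontal, bp), by place, for WT scores of 20 and over (left) and of 10 to 20 (right). In the left panel the intergenic summits reach 73.9% by 25 bp and 100% by 108 bp.

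Of the 46 very high members, 29 (63.0%, interval 47.5 to 76.8%) were more than 50 kb away from the closest protein-coding gene and 12 (26.1%, 14.3 to 41.1%) over 200 kb. Of the 327 members scoring under 20, 93 (28.4%, 23.6 to 33.7%) lay over 50 kb and 23 (7.03%) over 200 kb. The WT-only intergenic summits were spread like these 327, with 28.8% over 50 kb and 5.55% over 200 kb. The median distance was 85588.5 bp for the very high members, 25962 bp for the others and 22283 bp for the WT-only summits. The 12 over 200 kb came from 3 sites: 8 from the chromosome 9 run, 3 from the chromosome 2 run and 1 at position 39163474 of chromosome 13. Without the chromosome 9 run, 21 of 38 very high members (55.3%, 38.3 to 71.4%) lay over 50 kb and 4 of 38 (10.5%, 2.94 to 24.8%) over 200 kb, with a median of 62549.5 bp. With each site counted once, 19 of 36 (52.8%, 35.5 to 69.6%) lay over 50 kb and 3 of 36 (8.33%, 1.75 to 22.5%) over 200 kb. The share over 200 kb thus rested on runs, and the intervals cover counting error only.

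**Figure D4:**
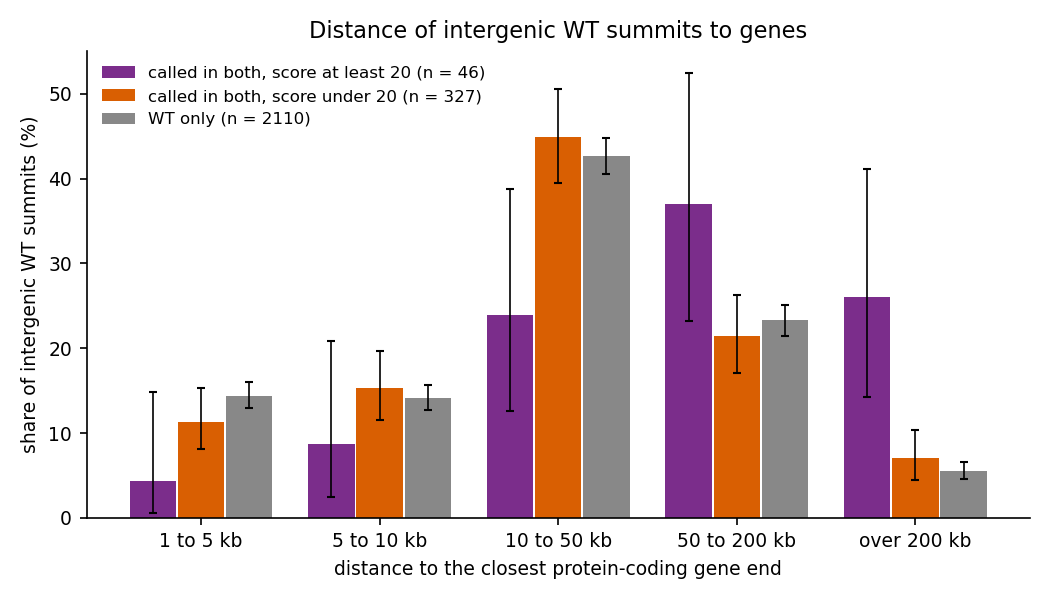
Share of intergenic WT summits (vertical, %) by distance to the closest protein-coding gene end (horizontal), for members of score at least 20 (46), members under 20 (327) and WT-only summits (2110); bars are shares and lines exact 95% intervals. Very high members are most frequent at 50 to 200 kb, the other classes at 10 to 50 kb.

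Other very high members lay inside the chromosomes. A pair on chromosome 14 (19415917 and 19418838) scored 33.2 and 89.4 in WT and 39.1 and 92.1 in Tle4cKO, 114862 bp from Gm2244 at its nearest. Position 74529665 of chromosome 13 scored 76.0 and 86.4 inside the pseudogene Gm20590. On chromosome 17, positions 13552966, 13590571 and 13654885 scored 63.7, 38.5 and 25.7 in WT and 76.9, 39.1 and 17.9 in Tle4cKO, all over 50 kb from Tcte2.

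Position 113424600 of chromosome 12 (72.5 and 73.1) lay inside Igh, the immunoglobulin heavy chain locus, which B cells rearrange. RefSeq types this locus as neither protein-coding nor non-coding RNA, so the rule took it as intergenic. Of the 5 B cell marker genes 0 was the closest gene of a member within 50 kb, and a part of B cells in this summit was not tested. Position 122615944 of chromosome 6 scored 71.3 in WT and 39.7 in Tle4cKO, 5857 bp from Gdf3, a growth factor gene of early embryos. Position 83756834 of chromosome 8 scored 51.8 and 55.2, 15523 bp from Adgre5, an adhesion receptor of leukocytes. Position 75086747 of chromosome 15 scored 25.5 and 24.8, 21414 bp from Ly6c2, a gene of the Ly6C antigen that the sort selected at a low level.

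The closest to a gene lay 1016 bp from Npl (3.32 and 5.63) and from Irgm1 (5.35 and 3.77), and the nearest shared summit left out lay 924 bp from P2ry6 (14.1 and 12.5). The widest offset was 498 bp (position 23385100 of chromosome 5), and the closest summit left out had its partner at 526 bp (position 122811229 of chromosome 6). The lowest very high members scored 20.2 and 20.4, and the next below scored 19.9 and 19.6.

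Other RefSeq genes were then counted around the members. A non-coding or other gene lay within 1 kb of 120 members (32.2%, interval 27.5 to 37.2%) and of 628 WT-only summits (29.8%, 27.8 to 31.8%). Long non-coding RNA genes made up most of these, at 23.1% of members and 25.1% of WT-only summits. Pseudogenes lay within 1 kb of 27 members (7.24%, 4.82 to 10.4%) and of 64 WT-only summits (3.03%, 2.34 to 3.86%). Genes of small nuclear RNAs, the RNA parts of the spliceosome, lay within 1 kb of 8 members (2.14%, 0.930 to 4.18%) and of 13 WT-only summits (0.616%, 0.328 to 1.05%).

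None of the 8 summits at small nuclear RNA genes was very high. On chromosome 12 a pair lay 34 bp from Gm25679 (position 54719360, 14.3 and 6.20) and 40 bp from Gm26444 (position 54729562, 10.7 and 4.45). On chromosome 11 another pair lay 196 bp from Rnu2-10, a U2 gene (position 101658042, 9.63 and 4.01), and 213 bp from Gm23971 (position 101646143, 5.65 and 4.32). The remaining 4 were at Gm25099, Gm24497, Gm22614 and Gm25064, with WT scores of 4.12 to 9.61. Transfer RNA genes lay within 1 kb of 2 members, n-TRcct1 (4.65 and 3.24) and n-THgtg4 (3.89 and 2.198). The summit at Gm22614 lay inside its gene, and the rest of the 8 lay outside theirs, at up to 522 bp (Gm25064). Those at n-TRcct1 and n-THgtg4 lay 681 and 192 bp away. Such short genes occur in near-identical copies, and whether reads at these summits were placed on the wrong copy was not tested.

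The closest protein-coding genes were read against lists of macrophage genes. A closest gene need not be the target of an enhancer. Over all 21631 protein-coding genes, 235 (1.09%) were the closest gene of a member within 50 kb. Of 30 macrophage identity genes 3 were, of 25 inflammatory and NF-kB genes 1, of 22 Groucho partner, Notch and Wnt genes 1, and of 16 AP-1 and immediate early genes 1. Of 17 interferon and antigen presentation genes and of 15 lipid and lysosome genes 0 were. None of these list members was beside a very high summit.

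Position 138192299 of chromosome 1 lay 16543 bp from Ptprc, which encodes the leukocyte antigen CD45, with scores of 9.39 and 5.71. Position 53509823 of chromosome 5 lay 45956 bp from Rbpj, the DNA-binding factor of the Notch pathway, which works with Groucho corepressors, with scores of 9.38 and 3.57. Position 35813659 of chromosome 17 lay 8054 bp from Ier3, an immediate early gene (4.38 and 2.85). These are scores in the range of the bulk of the members. Runx3, a lineage factor whose family binds Groucho proteins, had a member at 15416 bp (position 135193406 of chromosome 4, 3.797 and 4.40). Irf8, a factor of monocyte and macrophage development, had one at 36425 bp (position 120793119 of chromosome 8, 2.48 and 2.01). Nfkbia, the inhibitor of NF-kB, had one at 15531 bp (position 55473878 of chromosome 12, 2.80 and 5.35). The WT scores at Runx3, Irf8 and Nfkbia were below the lower quartile of the members, 4.38. They ranked 6805, 9765 and 9144 among the 10460 WT summits.

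Further list genes were the closest gene of a member from beyond 50 kb. Maf, a factor of resident macrophages, was 52817 bp away (4.37 and 2.84), and Klf4 119076 bp (4.66 and 3.35). Axin2, a target of Wnt signalling, was 61078 bp away (8.34 and 9.90), and Tle1, a relative of Tle4, 178437 bp (3.63 and 3.69). Abca1, the cholesterol exporter, was 109948 bp from position 53269936 of chromosome 4 (2.94 and 5.02). The WT score at this position was also below the lower quartile of the members and ranked 8864 among the 10460 WT summits. That summit, singled out after its values were seen, lay 247 bp from the promoter window of Mexis, a long non-coding RNA of macrophages that is known to raise Abca1 transcription.

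Among the 10 highest members within 10 kb of a gene, 4 scored under 20, and the first 2 of these were on the X chromosome. Position 7714382 scored 16.1 and 6.68, 4121 bp from Gpkow, a splicing-associated factor. Position 8096726 scored 14.8 and 5.17, 6235 bp from Was, the actin regulator that is mutated in Wiskott-Aldrich syndrome, and 361 bp from the transcribed pseudogene Gm6787. On chromosome 10, position 81997099 (14.7 and 8.95) lay 4526 bp from Gm19802. The last was position 3112548 of chromosome 10 (14.2 and 19.7), in the run of 4 described above. Over all members under 20, the Tle4cKO score was at least the WT score in 88 of 327 (26.9%). Over shared summits of any score it was so in 107 of 373 members (28.7%), 142 of 982 at gene ends (14.5%) and 138 of 520 in gene bodies (26.5%). For members the share was 46.4% at WT scores under 5 and 14.6% at 5 to 10, and at gene ends 45.3% and 6.91%. The scores are not on a common scale, so no change is read from these shares.

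Marker genes of other cells of the colon were checked around the members. None of 8 epithelial, 4 T cell, 5 neutrophil, 5 fibroblast and muscle, 3 endothelial, 5 dendritic cell, 3 eosinophil, 3 mast cell and 3 glia and neuron markers was the closest gene of a member within 50 kb. The same held for the 9 macrophage markers, of which 3 were the closest gene of any intergenic WT summit in that range. Of the 4 genes of the sort markers 1 was, Ly6c2, whose summit is given above. At the 1.09% of all genes that had a member in that range, lists this short are likely to hold none, so the zeros say little about which cells were present. By chromosome, members made up 9.35% (chromosome 11) to 31.2% (X) of intergenic WT summits, with 15 of 48 on X and 21 of 102 on chromosome 9.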

How the data were processed

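The members, lists and settings were chosen with earlier results of these data known. One list of peak summits per library was deposited. Reads were handled with Bowtie2 2.2.5 and cutadapt 1.14 on build mm10, per the submitters' processing notes. Which peak caller was run, with which settings and control, and the read depth are not stated in any source used. The authors' deposited score was taken to be a −log10 p-value or q-value from its layout and lowest values. Gene positions came from RefSeq (GRCm38.p6), with 21631 protein-coding genes on chromosomes 1 to 19 and X, as outer start and end with no strand. Python 3.11.15, pandas 2.3.3, scipy 1.17.1 and blastn 2.17.0 were used. Intervals are exact Clopper-Pearson 95% intervals. No test was made, since each genotype had 1 library. On 2000 simulated summits, 100% of 616 planted partners and 0.145% of the others were called. This was a check of the code only. Partners were planted within the 500 bp that the rule accepts, which fixed the 100% in advance. They were fewer than the 2341 Tle4cKO summits, so 0.145% is not the share of accidental partners in these data. The planned sequence features needed the genome and were replaced, after the data had been seen, by RefSeq promoter windows. Summits named are the 10 highest per list and distance class, the longest runs, the list genes and those at the limits; not all are printed, and the other very high summits, the small nuclear and transfer RNA genes and the list genes beyond 50 kb were added after their values were seen. Alternatives were other distances, score minimums, annotations and ways of counting.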

Additional observations from a re-analysis of the deposited data

Results flagged for a closer look

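The Y chromosome was outside the rule. There, 7 WT summits met it otherwise, above the limit of 3 used to mark such signals, and 6 of them lay within 100 kb of each other near Gm52481. The highest, at position 90769174, scored 41.0 in WT and 32.0 in Tle4cKO, with 4 bp between the lists, and position 90782121 scored 37.1 and 27.2.

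The mitochondrial chromosome, which carries no histones, had 4 WT summits, also above 3, and 2 in Tle4cKO. The WT scores were 2.72 to 8.94.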

How the results depend on the processing

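The count of 373 members came to 248 with a WT score minimum of 5, 136 with both scores at least 5, and 191 when as many top WT summits were kept as Tle4cKO has, each of which drops summits by construction. The 46 very high members came to 18 when the threshold was set at the same share of the Tle4cKO list (its 21 highest summits). The 4 runs became 7 with a gap of 50000 bp. The 6 list genes closest to a member within 50 kb became 1 within 10 kb and 11 with no limit. Without the run at the start of chromosome 9, the members past the outermost gene numbered 16 and not 27, and the share of very high members over 200 kb was 10.5% and not 26.1%, or 8.33% with 1 count per site. Of 39 alternatives the other 29 stayed within 1.5 times the reported count, or within the interval or spread of the value. Those added after seeing the data were counts per site, leaving out that run, the outermost protein-coding gene and offsets without runs. The 3 alternatives on genome sequence were not run. No paired analysis was possible because each genotype had 1 library, and none could be left out. Depth limits every score and every absence of a call.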

Other observations

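Summits of the same kind also lay outside the intergenic class. The last summit of chromosome 3 lay 873 bp past its last gene, Wls, with scores of 78.2 and 65.4, and so counted as a gene end. In gene bodies, position 103649172 of chromosome 6 in Chl1 scored 106 in WT and 112 in Tle4cKO, and position 66421113 of chromosome 11 in Shisa6 scored 95.8 and 98.0.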
